A study of Homo sapiens with 6 samples.

Results

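The mechanosensitive channel and caveola genes were examined in RNA sequencing libraries of MCF10CA1a cells, a malignant human breast line derived from the MCF10A epithelial lineage. They were taken by symbol from a given list and are 10 of 26484 symbols in the count tables. The list holds the channel genes PIEZO1, PIEZO2, TRPV4, TRPM7, TRPC1, TMEM63A and TMEM63B and the caveola genes CAV1, CAV2 and EHD2. The cells had grown for 5 days on hydrogel dishes of 8000 Pa (stiff) or 500 Pa (soft), all coated with growth factor-reduced Matrigel, with 3 biological replicates at each stiffness. Both groups shared the same line, the same coating, a medium with horse serum and RNA that the labels call cytosolic, and this single line is the only cell model in the series. The comparison asked whether transcripts of these genes differ between a stiff and a soft matrix. The labels do not say whether a replicate was a separate culture on a separate day, so p-values measure the spread between these libraries.

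As background, PIEZO, TMEM63 and some TRP proteins form cation channels that open when the membrane is stretched or the cell is deformed, and calcium entering through them can act as a signal. Caveolae are small flask-shaped pits of the plasma membrane built from caveolins and cavins, and they can flatten under tension and so buffer it. EHD2 is an ATPase that holds caveolae at the cell surface. Within the breast epithelium, caveolins are best known from basal and myoepithelial cells.

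Of the 10 genes, 8 passed the filter on low counts and none passed the test between 8000 Pa and 500 Pa (0 of 8 at a false discovery rate of 0.05 by edgeR's quasi-likelihood test). Over all genes the same test called 0% of 11517, with 282 (2.45%) at an unadjusted p under 0.05, of which 0 were among the 8. DESeq2 called 7 genes and limma-voom 0, again with 0 of the 8. With same-numbered libraries paired, edgeR called 0.53% of the 11517 genes, and again 0 of the 8. The remaining genes, PIEZO2 and TRPC1, had at most 3 and at most 11 counts in any library. The largest differences were those of EHD2 and CAV2, both lower at 8000 Pa in 3 of 3 pairs, as 15.2% of all tested genes were.

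Stretches of genomic sequence are given for orientation, since the annotation places both just before a gene discussed at length, one for a channel and one for a caveola gene. They are RefSeq sequences on GRCh38.p14, limited to bases outside the exons of GENCODE 29, with the Sp1 box GGGCGG or its complement in capitals. The first is the 250 bases before PIEZO1 at chr16:88785221-88785470, minus strand, and the second is the 171 bases before EHD2 at chr19:47713172-47713342, plus strand.
PIEZO1: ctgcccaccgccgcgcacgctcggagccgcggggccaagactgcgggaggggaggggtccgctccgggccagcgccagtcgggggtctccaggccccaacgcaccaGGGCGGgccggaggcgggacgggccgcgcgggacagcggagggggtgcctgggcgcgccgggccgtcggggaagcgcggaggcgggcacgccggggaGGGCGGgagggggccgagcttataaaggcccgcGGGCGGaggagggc
EHD2: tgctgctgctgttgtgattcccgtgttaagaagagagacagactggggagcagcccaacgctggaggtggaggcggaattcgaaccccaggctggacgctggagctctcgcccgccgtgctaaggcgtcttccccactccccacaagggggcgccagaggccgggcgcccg
The PIEZO1 stretch is 81.2% G and C and holds 3 Sp1 boxes. Of the 35116 RefSeq windows of this length, 42.6% hold the box on either strand. The full 250-base EHD2 window, part of which is exonic in GENCODE 29 and is not printed, is 69.6% G and C and holds 1 box. Neither window holds the TEAD motif GGAATG (in 11.9% of all windows), the AP-1 motif TGANTCA (6.57%) or the CArG box of SRF (1.16%), searched on both strands. These are matches of letters and say nothing of binding.

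PIEZO1, the principal stretch-activated cation channel of epithelial cells, lies on chromosome 16 from 88715338 to 88785220 (GRCh38, minus strand). It had 375, 347 and 582 raw counts in the 8000 Pa libraries, against 732, 331 and 389 in the 500 Pa libraries, in the order of replicates 1 to 3. Scaled by TMM (trimmed mean of M values) to CPM, the usual depth-scaled read count, these were 30.0, 36.7 and 58.0 CPM at 8000 Pa and 40.9, 37.0 and 55.6 CPM at 500 Pa. The ranges overlapped almost fully and replicate 3 was highest at both stiffnesses. The means were 41.5 ± 14.7 CPM at 8000 Pa and 44.5 ± 9.80 CPM at 500 Pa (SD, n = 3 each). The log2 fold change of 8000 Pa over 500 Pa was -0.10 (SE 0.32, edgeR adjusted p = 0.9999). Its 95% interval runs from 0.578-fold to 1.51-fold, so changes of up to those sizes cannot be told from none. Of 3 antisense genes that overlap the PIEZO1 exons, AC138028.4 covers 12.6% of them, AC138028.2 6.16% and AC138028.5 0.983%, and strandedness of the counting is not given in the sources used here.

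PIEZO2, the related channel of touch-sensing cells, had 0, 1 and 3 counts at 8000 Pa and 0, 0 and 0 at 500 Pa. Its highest value, 0.299 CPM in 8000 Pa replicate 3, equals the limit that a count of 0 allows there (3 counts). It was therefore not detected above the counting floor in either group, which spans 0.168 to 0.429 CPM over the 6 libraries. Such a floor takes in the error of counting alone.

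Among the TRP channels, TRPV4, a calcium channel opened by swelling, heat and lipid mediators (chromosome 12 from 109783085 to 109833401), had 8.63, 17.9 and 14.4 CPM at 8000 Pa, against 15.03, 13.6 and 25.4 CPM at 500 Pa. The lowest value was in 8000 Pa replicate 1 and the highest in 500 Pa replicate 3, with the others overlapping. The log2 fold change was -0.40 (SE 0.38, edgeR adjusted p = 0.9999). TRPM7, a channel fused to a kinase that carries magnesium and calcium (chromosome 15 from 50552473 to 50686815), had 15.4, 4.97 and 2.59 CPM at 8000 Pa and 9.78, 6.48 and 6.29 CPM at 500 Pa. The 8000 Pa libraries thus held both the highest and the lowest TRPM7 value, and the highest was 5.95 times the lowest. Its SD within groups, 0.94 on the log2 scale, stood at the 95.3rd percentile of all tested genes, whose median was 0.45. The log2 fold change of TRPM7 was 0.03 (SE 0.55), and its 95% interval from 0.449-fold to 2.31-fold was the widest of the 8. Without 8000 Pa replicate 1 it was -1.01 (edgeR adjusted p = 0.9998), without 500 Pa replicate 2 or 3 it was -0.072 or -0.014, and in the paired fit it was -0.25.

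TRPC1, a subunit of receptor-operated cation channels, had 4, 3 and 0 counts at 8000 Pa, against 3, 11 and 0 at 500 Pa. Only 500 Pa replicate 2 was well above the floor, at 1.23 CPM. TRPC1 and PIEZO2 did not pass the filter. In an edgeR fit without any filter their adjusted p were 0.949 each, over 16894 genes.

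TMEM63A, an osmosensitive and stretch-activated channel of the OSCA family (chromosome 1 from 225845536 to 225882369), was the most abundant of the 7 listed channel genes, per length as well as in CPM. It had 150.3, 215 and 256 CPM at 8000 Pa and 202, 202 and 328 CPM at 500 Pa, so that only the lowest and the highest library lay outside the shared range. Its paralog TMEM63B (chromosome 6 from 44126914 to 44155519) had 13.0, 37.4 and 29.1 CPM at 8000 Pa and 17.5, 37.2 and 32.6 CPM at 500 Pa. In TMEM63B both replicate 1 libraries were low, and the same-numbered libraries of the other replicates lay close together. Log2 fold changes were -0.24 for TMEM63A (SE 0.29) and -0.13 for TMEM63B (SE 0.41), each with an edgeR adjusted p of 0.9999. TMEM63B reads numbered far fewer than TMEM63A reads in every library, with TMEM63A-to-TMEM63B count ratios of 11.5, 5.75 and 8.78 at 8000 Pa and 11.5, 5.43 and 10.1 at 500 Pa. The ratio followed the replicate number more than the stiffness.

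CAV1, the main structural protein of caveolae, had 2470, 1163 and 1054 raw counts at 8000 Pa, against 3755, 1894 and 589 at 500 Pa. These were 197, 123 and 105 CPM at 8000 Pa and 210, 212 and 84.2 CPM at 500 Pa. The lowest value of all was a 500 Pa library, replicate 3, and the ranges overlapped. The means were 142 ± 48.9 CPM at 8000 Pa and 169 ± 73.1 CPM at 500 Pa (SD, n = 3 each), with a log2 fold change of -0.25 (SE 0.36, edgeR adjusted p = 0.9999). CAV1 lies on chromosome 7 from 116524785 to 116561184, and CAV2 lies before it on the same strand, with 16243 bases between the gene models in GENCODE 29.

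CAV2, the caveolin that joins CAV1 in hetero-oligomers (chromosome 7 from 116287380 to 116508541), had 23.4, 21.4 and 14.0 CPM at 8000 Pa and 33.2, 31.4 and 17.1 CPM at 500 Pa. Each 8000 Pa library was below the 500 Pa library of the same number, but 500 Pa replicate 3 lay under the other pairs' 8000 Pa values, so the groups overlapped. The log2 fold change was -0.48 (SE 0.35, edgeR adjusted p = 0.9999) and, paired, -0.45 (SE 0.27, adjusted p = 0.580). CAV1 reads outnumbered CAV2 reads 8.43, 5.73 and 7.53 times at 8000 Pa and 6.32, 6.74 and 4.91 times at 500 Pa.

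EHD2 lies on chromosome 19 from 47713343 to 47743134. It had 1277, 1661 and 2256 raw counts at 8000 Pa, against 4025, 1734 and 2105 at 500 Pa. In CPM these were 102, 175 and 225 at 8000 Pa and 225, 194 and 301 at 500 Pa. As with CAV2, the 8000 Pa value was the lower one in each pair, while 8000 Pa replicate 3 lay above 500 Pa replicate 2. The means were 167 ± 61.8 CPM at 8000 Pa and 240 ± 55.0 CPM at 500 Pa (SD, n = 3 each). The log2 fold change was -0.52 (SE 0.31, edgeR adjusted p = 0.9999) and -0.57 in the paired fit (SE 0.23, adjusted p = 0.318). EHD2 was the 1 gene of the 8 with an unadjusted paired p under 0.05, a level that 10.6% of all tested genes reached. With the correction for GC content described below, its unadjusted paired edgeR p was 0.083. The fold change was -0.26 without 8000 Pa replicate 1, -0.28 without 500 Pa replicate 3 and -0.79 without 8000 Pa replicate 3, and the gene did not pass in any of these. Of 12 genes listed as epithelial markers, all 12 were tested, 9 were below 0 and 0 passed in either fit. The 9 include VIM, a mesenchymal marker, at -0.15. The summed level of the 12 was 16874 to 31121 CPM at 8000 Pa and 24037 to 38391 CPM at 500 Pa, most of it from KRT8, KRT15 and KRT18. The keratin genes among the 12 that were grouped here as basal, set apart after their values were seen, were all below 0. Whether each of them marks basal cells in this line was not tested. Their log2 fold changes were -0.60 for KRT5, -0.34 for KRT14, -0.36 for KRT15 and -0.89 for KRT17 (edgeR adjusted p = 0.9999 each). The other keratin genes listed were below 0 too, with KRT8 at -0.31, KRT18 at -0.33 and KRT19 at -0.08. The 3 markers above 0 were CDH1 at 0.44, EPCAM at 0.19 and ESR1 at 0.006. KRT17 was lower at 8000 Pa in 3 of 3 pairs, as 15.2% of all tested genes were (paired log2 fold change -0.83, SE 0.26, edgeR adjusted p = 0.117). KRT15 had 5852, 9184 and 9719 CPM at 8000 Pa and 10056, 9833 and 11810 CPM at 500 Pa. Its groups did not overlap, as for 2.85% of all tested genes in that direction. The part of basal-like cells in the EHD2 and CAV2 values was not tested. In bulk RNA, fewer cells with caveolae and less caveola transcript per cell cannot be told apart.

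**Figure D1:**
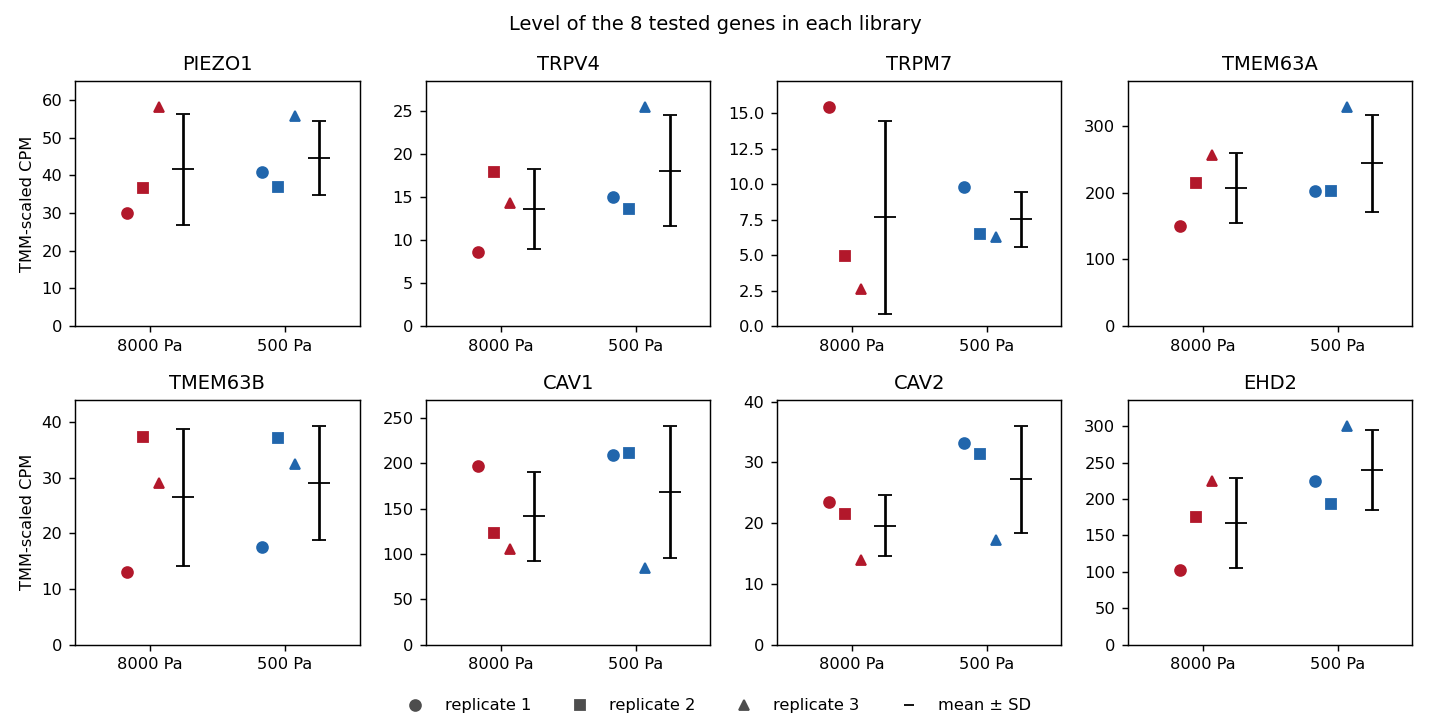
TMM-scaled CPM (vertical axis, from 0) of the 8 tested genes in each library, 8000 Pa in red and 500 Pa in blue, with a symbol for each replicate number and the mean ± SD beside each group (n = 3). The 2 groups overlap in every panel, and EHD2 and CAV2 are lower at 8000 Pa for each replicate number.

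None of the 8 genes had groups that did not overlap, where 6.87% of all tested genes did, 2.85% as lower at 8000 Pa. Of the 8 fold changes 7 were below 0 without pairing, beside 48.8% of all tested genes, and 8 were below 0 in the paired fit, beside 50.6%. The median log2 fold change was -0.24 in each fit, against 0.01 over all tested genes without pairing and -0.01 with pairing. The genes were chosen as a list with earlier results known, and no test of the list was made.

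**Figure D2:**
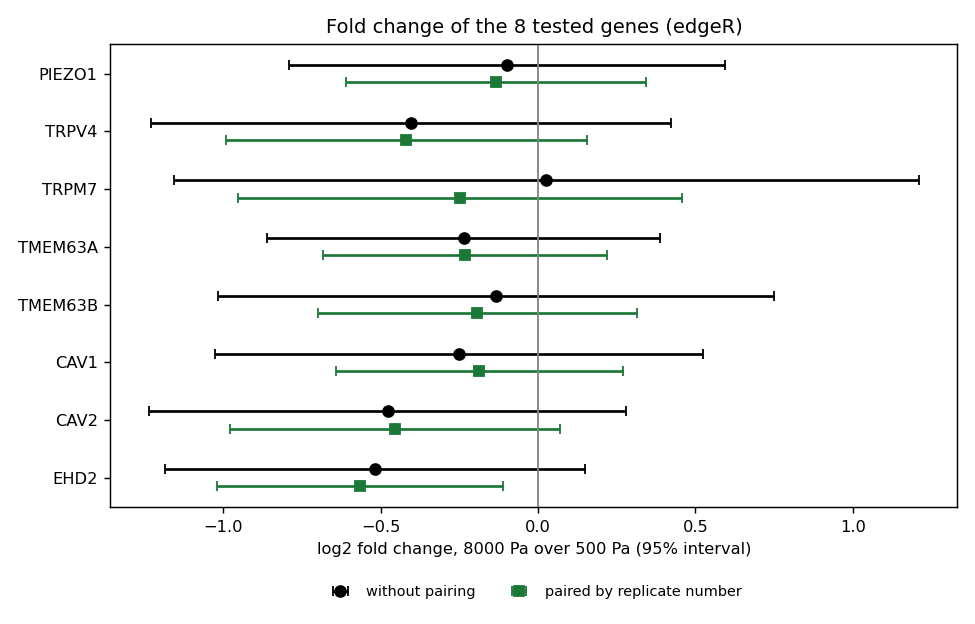
Log2 fold change of 8000 Pa over 500 Pa for the 8 tested genes with 95% intervals, without pairing (black circles) and paired by replicate number (green squares). Every interval without pairing crosses 0, and with pairing only that of EHD2, from -1.02 to -0.11, lies below it.

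The direction or size of several small differences depended on single libraries or, for the direction of CAV1, on a pair. PIEZO1 was at 0.091 on the log2 scale without 8000 Pa replicate 1 and 0.14 without 500 Pa replicate 3. TMEM63A was at 0.081 without 500 Pa replicate 3, and TMEM63B at 0.20 without 8000 Pa replicate 1 and 0.084 without 500 Pa replicate 2. CAV1 was at 0.11 in the paired fit without pair 2. TRPV4 was at -0.038 without 500 Pa replicate 3 and -0.16 without 8000 Pa replicate 1, against -0.65 without 8000 Pa replicate 2. CAV2 was at -0.25 without 8000 Pa replicate 3 and -0.28 without 500 Pa replicate 1. The sign of TRPV4, CAV2 and EHD2 was below 0 in each of the 20 alternative settings, and none of the 8 genes passed in any of them. In those settings the smallest adjusted p of EHD2 was 0.193 and that of CAV2 0.229.

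Levels can be compared between genes only per length. In CPM per kilobase of annotated exons, averaged over the 6 libraries, EHD2 came first at 51.9, followed by CAV1 at 38.0 and TMEM63A at 21.8. TMEM63B at 6.29, TRPV4 at 4.21, PIEZO1 at 3.81 and CAV2 at 3.38 formed the next tier, then TRPM7 at 0.612. TRPC1 at 0.0711 and PIEZO2 at 0.00456 closed the order. EHD2 and CAV1 overlapped across libraries, as did CAV1 and TMEM63A. A gap with no overlap separated TMEM63A, at 14.5 or more, from TMEM63B, at 8.45 or less. Neighbours from TMEM63B to CAV2 also overlapped, whereas CAV2, at 2.02 or more, lay above TRPM7, at 1.24 or less, in every library.

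Per length and by stiffness, EHD2 had 42.7 ± 15.8 CPM per kilobase at 8000 Pa and 61.1 ± 14.0 at 500 Pa. CAV1 had 34.7 ± 11.99 CPM per kilobase at 8000 Pa and 41.3 ± 17.9 at 500 Pa, and PIEZO1 had 3.68 ± 1.30 at 8000 Pa and 3.94 ± 0.868 at 500 Pa (SD, n = 3 each). The order depends on the length used. With the coding length in place of all exons, CAV1 had rank 1, CAV2 rank 4 and PIEZO1 rank 7. In plain CPM over 6 libraries TMEM63A, EHD2 and CAV1 stood at the 92.6th, 91.8th and 89.1st percentile of all tested genes, and PIEZO1 at the 70.4th.

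**Figure D3:**
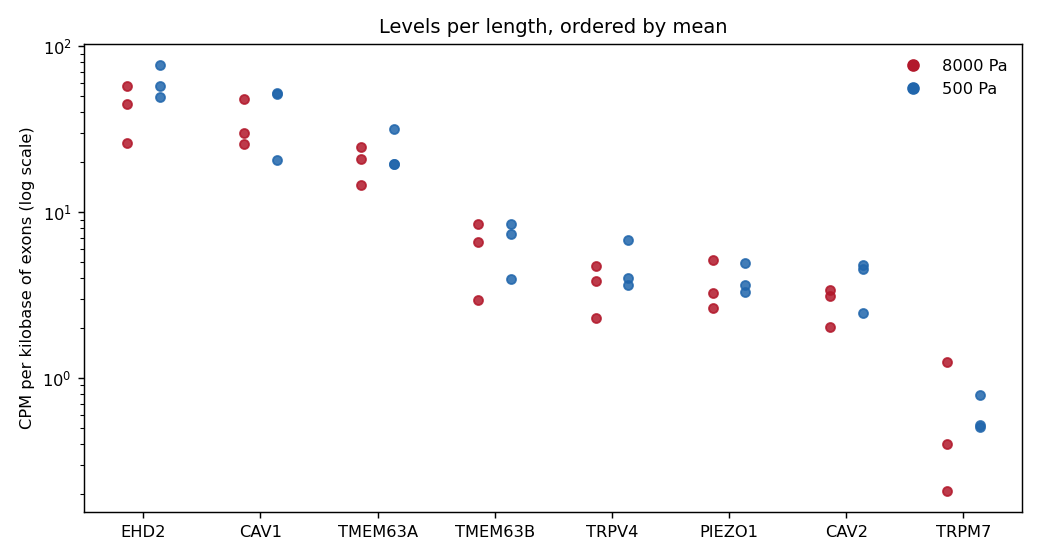
CPM per kilobase of annotated exons (log scale) for the 8 tested genes in order of their mean, each point 1 library, 8000 Pa in red to the left of 500 Pa in blue. EHD2, CAV1 and TMEM63A lie above all libraries of the other 5 genes, and TRPM7 lies below them.

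The variation of the 8 genes among libraries was set beside the G and C content of their transcripts, with which it went in some libraries and not in others. Each gene's log2 CPM was set against its own mean over the 6 libraries. In 8000 Pa replicate 1 the AT-rich TRPM7 (39.6% GC) stood at 1.22, CAV2 (40.7% GC) at 0.065 and CAV1 (46.2% GC) at 0.44, while the GC-rich TRPV4, EHD2 and PIEZO1 stood at -0.80, -0.92 and -0.48. In 8000 Pa replicate 3, TRPM7 stood at -1.31, CAV2 at -0.68, CAV1 at -0.47 and PIEZO1 at 0.47. In 500 Pa replicate 3, CAV2 stood at -0.38, CAV1 at -0.79 and PIEZO1 at 0.41, but TRPM7, the most AT-rich, at only -0.062. Across the 8 genes, Spearman's rho between deviation and GC content was -0.67, 0.31 and 0.83 at 8000 Pa (replicates 1 to 3) and -0.62, -0.48 and 0.69 at 500 Pa. Across 11344 genes it was -0.77, -0.06 and 0.68 at 8000 Pa and -0.14, -0.13 and 0.54 at 500 Pa. These are descriptions, since genes of 1 library share its preparation and depth.

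**Figure D4:**
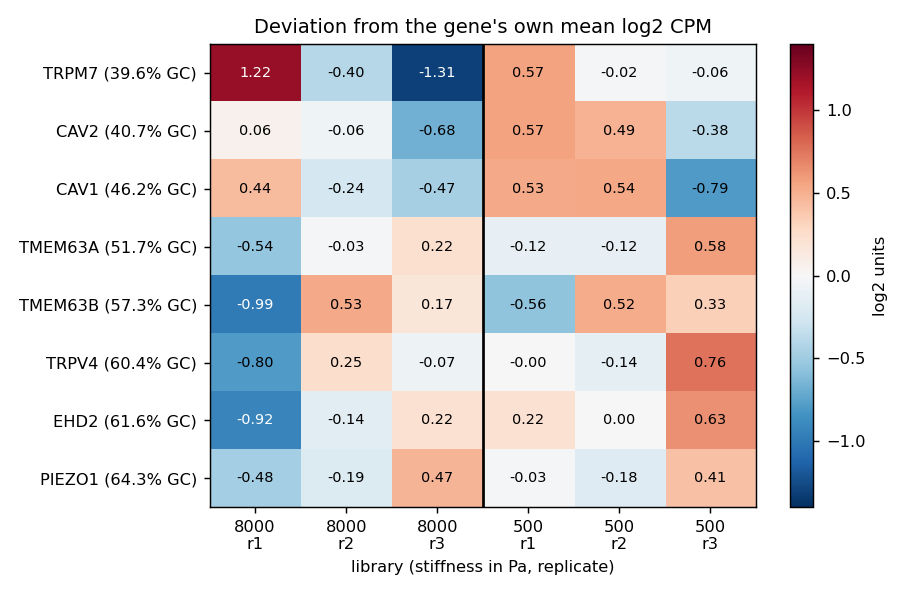
Deviation of each library from the gene's own mean log2 CPM (colour and printed number, log2 units), genes from the lowest transcript GC content at the top to the highest at the bottom, 8000 Pa libraries left of 500 Pa libraries. In 8000 Pa replicate 1 TRPM7 and CAV1 are high and TMEM63B, TRPV4 and EHD2 low, and in both replicate 3 libraries CAV1 and CAV2 are low.

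When a GC trend was removed from each library, the spread within groups fell for each of the 8 genes. EHD2 then had the smallest, with an SD of 0.077 on the log2 scale, against 0.47 before. Its log2 fold change also moved towards 0, from -0.52 to -0.29, and in the paired fit from -0.57 to -0.29. EHD2 then had 169, 177 and 181 CPM at 8000 Pa and 225, 198 and 219 CPM at 500 Pa, with no overlap. CAV2 had 16.1, 20.9 and 18.8 CPM at 8000 Pa and 31.7, 29.2 and 21.4 CPM at 500 Pa, also with no overlap. After this step 10.5% of all tested genes had groups that did not overlap, 4.78% as lower at 8000 Pa. The log2 fold changes were -0.29 for EHD2 (SE 0.17, edgeR adjusted p = 0.880) and -0.57 for CAV2 (SE 0.22, adjusted p = 0.825), and in the paired fit with the same correction the adjusted p were 0.485 for EHD2 and 0.229 for CAV2. With the correction 0 of the 8 genes passed, beside 0.00868% of all tested genes without pairing and 0.564% with it. The unadjusted p of CAV2 was 0.0251 by edgeR, under the 0.05 that 5.73% of all tested genes reached. In the paired fit with the correction it was 0.0094, under the 0.05 that 12% of all tested genes reached. The unadjusted paired edgeR p of EHD2 was 0.083 with the correction, against 0.0146 without it. PIEZO1 changed sign, to 0.23 (SE 0.20, adjusted p = 0.9001).

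The summed CPM of CAV1, CAV2 and EHD2 was 323, 320 and 344 at 8000 Pa, against 468, 437 and 402 at 500 Pa. These sums did not overlap, although those of each gene alone did. CAV1 and EHD2 deviated in opposite directions in 8000 Pa replicate 1 and in both replicate 3 libraries. The EHD2-to-CAV1 count ratio ranged from 0.517 to 2.14 at 8000 Pa and from 0.916 to 3.57 at 500 Pa. The sum was formed after the values were seen and was not tested. How often sums of other genes fail to overlap was not counted, and the share given for single genes does not apply to a sum. Scaled by library size alone it was 391, 334 and 322 at 8000 Pa and 446, 459 and 339 at 500 Pa, and with the GC correction 358, 312 and 309 at 8000 Pa and 480, 423 and 341 at 500 Pa. In both cases the groups overlapped. With RLE (relative log expression) scaling it was 329, 316 and 339 at 8000 Pa and 463, 427 and 419 at 500 Pa, without overlap.

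Of 16 other genes of the caveola coat and neck, 12 could be tested and 0 passed, in either fit. Their median log2 fold change was -0.13 without pairing and -0.17 with it, and 9 of the 12 were below 0 in each. CAVIN1 (PTRF in the tables), the cavin that caveolae require, had 96.1, 126 and 189 CPM at 8000 Pa and 187, 138 and 188 CPM at 500 Pa. Its lowest value was in 8000 Pa replicate 1, as for EHD2, and the groups overlapped (log2 fold change -0.32, SE 0.29, edgeR adjusted p = 0.9999). EHD1, an ATPase of endosome recycling, had 159 ± 51.9 CPM at 8000 Pa and 179 ± 20.7 CPM at 500 Pa, and the membrane scaffold gene FLOT2 had 107 ± 31.6 CPM at 8000 Pa and 150 ± 47.0 CPM at 500 Pa (SD, n = 3 each). FLOT2 had the smallest paired p of the list (log2 fold change -0.49, SE 0.23, edgeR adjusted p = 0.425). The muscle genes CAV3 and CAVIN4 (MURC) and the vascular cavin CAVIN2 (SDPR) had at most 3 counts in any library.

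Of 23 other TRP channel genes, 8 were tested, 0 passed and 9 had no count in any library. The 8 split evenly, with 4 below 0 and a paired median log2 fold change of -0.12. The lysosomal channel MCOLN1 had 33.0 ± 12.03 CPM at 8000 Pa and 39.1 ± 12.6 CPM at 500 Pa. TRPM2, a calcium channel opened by ADP-ribose, had 12.2, 17.1 and 24.6 CPM at 8000 Pa and 33.6, 18.9 and 32.7 CPM at 500 Pa. It was lower at 8000 Pa in each pair, as 15.2% of all tested genes were. The groups overlapped (paired log2 fold change -0.67, SE 0.27, edgeR adjusted p = 0.313).

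Among 32 other channels that answer to stretch or swelling, 17 were tested and 0 passed, with 8 below 0 and a paired median log2 fold change of 0.014. SCNN1A, the alpha subunit of the epithelial sodium channel, was the most abundant at 296 ± 107 CPM at 8000 Pa and 302 ± 46.8 CPM at 500 Pa. TMEM87A, a Golgi membrane protein linked to mechanically evoked currents, had 124 ± 48.0 CPM at 8000 Pa and 94.1 ± 14.5 CPM at 500 Pa (SD, n = 3 each). PANX1, the large-pore channel that releases ATP, had 7.03, 6.55 and 4.39 CPM at 8000 Pa and 2.79, 4.36 and 1.29 CPM at 500 Pa. Its 8000 Pa values were all above its 500 Pa values, as 4.02% of all tested genes were, and it did not pass (paired log2 fold change 1.18, SE 0.43, edgeR adjusted p = 0.230).

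Of 5 PIEZO partner genes, 3 were tested and 0 passed, with 1 below 0 and a paired median log2 fold change of 0.33. ATP2A2, the calcium pump SERCA2, had 32.0 ± 9.14 CPM at 8000 Pa and 25.2 ± 5.24 CPM at 500 Pa, and STOM (stomatin) had 26.4 ± 5.69 CPM at 8000 Pa and 29.04 ± 8.76 CPM at 500 Pa. MDFIC, an auxiliary subunit of PIEZO channels, had 1.74 ± 0.910 CPM at 8000 Pa and 0.944 ± 0.876 CPM at 500 Pa (SD, n = 3 each). Of 26 genes of calcium entry and calcium-dependent signalling, 23 were tested and 0 passed, with 9 below 0 in the paired fit and a median of 0.13. The calmodulin gene CALM2 had 1349 ± 274 CPM at 8000 Pa and 1174 ± 159 CPM at 500 Pa. CAPN1, the large subunit of the calcium-activated protease calpain-1, had 669 ± 248 CPM at 8000 Pa and 943 ± 362 CPM at 500 Pa. CAPNS1, the small subunit it shares with calpain-2, had 65.8, 129 and 129.99 CPM at 8000 Pa and 134, 122 and 248 CPM at 500 Pa, which overlapped (paired log2 fold change -0.63, SE 0.23, edgeR adjusted p = 0.240).

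**Figure D5:**
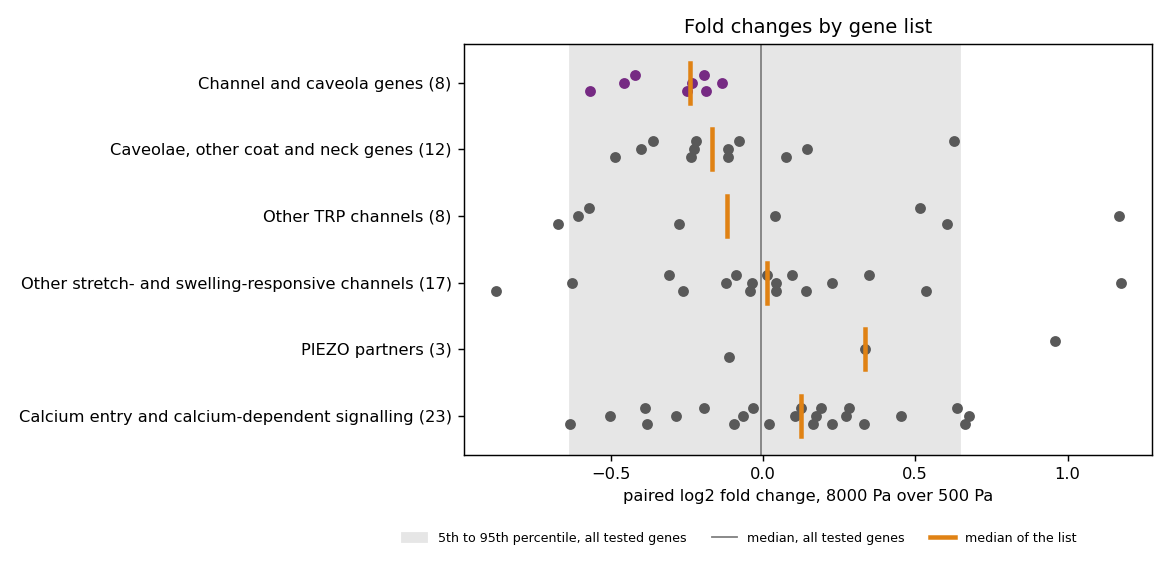
Paired log2 fold change of 8000 Pa over 500 Pa (horizontal axis) for the 8 tested channel and caveola genes and for the tested genes of 5 related lists, each point 1 gene, with the median of each list in orange and the 5th to 95th percentile of all tested genes, from -0.63 to 0.65, in grey. The 8 genes lie between -0.57 and -0.13, inside that band.

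The genes whose profile over the 6 libraries was most like that of PIEZO1, among 8703 other genes of at least 5 CPM, were UPF1, DPCD and ETFB. Their root mean square differences from PIEZO1 in centred log2 CPM were 0.044, 0.055 and 0.057. Those most like CAV1 were PSAT1, AP1S3 and TFB2M, at 0.069, 0.090 and 0.097. CAV2 ranked 143rd in likeness to CAV1, at 0.25, while EHD2 ranked 7520th, at 0.89. TMEM63A ranked 320th in likeness to PIEZO1, at 0.15. In transcript GC content CAV1 was at 46.2%, PSAT1, AP1S3 and TFB2M at 42.3%, 41.3% and 41.9%, CAV2 at 40.7% and EHD2 at 61.6%. PIEZO1 was at 64.3%, UPF1, DPCD and ETFB at 60.5%, 53.6% and 48.7%, and TMEM63A at 51.7%. The part of GC content in these ranks was not tested.

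Library totals ran from 9068926 to 10739449 counts at 8000 Pa and from 8305601 to 18779742 at 500 Pa. The first principal component, with 48.2% of the variance, had scores of -63.4 for 8000 Pa replicate 1, 36.0 for 8000 Pa replicate 3 and 49.3 for 500 Pa replicate 3. Epithelial markers were present, with KRT8 at 9061 ± 3224 CPM at 8000 Pa and 11249 ± 3609 CPM at 500 Pa (SD, n = 3 each). Endothelial and adipose cells are rich in caveolae. In the main test without pairing 0 of their markers passed. In the paired fit, where 0.53% of all tested genes passed, 4 did. Of 10 endothelial markers 4 were tested and 2 rose in the paired fit, PECAM1 (edgeR adjusted p = 0.00537) and CDH5 (3.14e-04). The other tested markers, EGFL7 and ESAM, had paired log2 fold changes of -0.51 and 0.03. The list's summed level was 227 to 274 CPM at 8000 Pa and 133 to 174 CPM at 500 Pa. Most of it was PECAM1, at 204 to 241 CPM at 8000 Pa and 89.2 to 146 CPM at 500 Pa. The defining endothelial genes TEK, TIE1, CLDN5 and ERG had 0 counts in all libraries. Of 7 adipocyte markers 3 were tested and 2 rose in the paired fit, LPL (edgeR adjusted p = 6.81e-05) and FABP4 (5.26e-04). PPARG, the other tested marker, had a paired log2 fold change of 0.07. The list's sum was 76.6 to 88.4 CPM at 8000 Pa and 49.3 to 81.6 CPM at 500 Pa. Most of it was PPARG, at 63.7 to 68.8 CPM at 8000 Pa and 44.0 to 77.6 CPM at 500 Pa. ADIPOQ and LEP had 0 counts. Of 10 fibroblast or smooth muscle and 6 leukocyte markers, 2 each were tested and 0 passed, and COL1A2, COL3A1 and PTPRC had 0 counts. The part of such cells or genes in the caveola values was not tested.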

How the data were processed

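The authors deposited 1 table per library with raw read counts per gene symbol and, per the file headers, TMM-scaled log2 values, which are filled for 8 of the 10 genes in each library and were used only as a check. Per the submitters' processing notes, HISAT2 2.1.2, HTSeq 0.11.4, limma and DESeq2 were used with GRCh38. For the annotation and the strand setting, the labels and notes say nothing.

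Counts were tested with edgeR 4.0.16 (R 4.3.3) by its quasi-likelihood test of stiffness, with TMM scaling, Benjamini-Hochberg adjustment and a filter keeping genes with enough libraries at about 10 counts and a total of 15. DESeq2 1.42.0 and limma 3.58.1 (voom) were alternatives, as were GC and length offsets, other scalings and filters, and leaving out each library. Code was checked on simulated data. Lengths, GC content and coordinates came from GENCODE 29 on GRCh38, with 23899 symbols matched directly, 700 through RefSeq synonyms and 1885 not matched. No library was a repeat of another. The counting floor of 3 counts lies between 0.168 and 0.429 CPM.

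Replicate numbers are shared between the stiffnesses in the labels, which do not say what they mark. Same-numbered libraries deviated together, with correlations of 0.40, 0.18 and 0.50 over 11517 genes for pairs 1 to 3. Differently numbered libraries gave -0.48 to 0.19, the highest being 8000 Pa replicate 1 with 500 Pa replicate 2, so pair 2 does not stand out in this measure. Deviations were taken from the mean of each group, which by itself pulls some of these values below 0. Both replicate 3 libraries also deviated upwards with GC content (Spearman's rho 0.68 at 8000 Pa and 0.54 at 500 Pa). The part of GC content in these correlations was not tested. In chi-square per degree of freedom between raw counts, which also grows with depth, pairs 1 to 3 had 104, 11.6 and 29.0. There pair 2 was the most alike, and differently numbered libraries of the 2 stiffnesses had 39.4 to 149. The paired fit is therefore given beside the main one, not in its place.

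All 10 genes are named. From each related list the genes passing the test, or otherwise the 2 of highest level and the 1 of smallest paired p, are named, and for PIEZO1 and CAV1 the 3 genes of most similar profile. The genes and lists were chosen with earlier results of these data known.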

Additional observations from a re-analysis of the deposited data

How the results depend on the processing

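None of the 8 genes and none of the related list genes passed in any of the 20 alternatives. Over all tested genes, 0 passed in the main test, against 61 with the replicate block, 65 with the replicate block and GC offset, 73 with the replicate block and length offset, 1 with the GC offset, 8 with no filter, 7 by DESeq2 and 42 by DESeq2 with the replicate block. Leaving out 1 library gave 0 or 1, and leaving out pair 1, 2 or 3 from the paired fit gave 38, 81 or 12. Of the log2 fold changes of named genes, 399 alternative values kept their direction and 39 reversed; the cause was not tested. PIEZO1 was at 0.21 with the block and GC offset, 0.23 with the GC offset and 0.047 with library size alone, which moves the median of all genes to 0.17. TRPM7 was at -0.25 with the block, -0.33 with the block and GC offset, -0.25 with the GC offset, -0.42 with the block and length offset, -0.29 by DESeq2 with the block and -0.33 by limma-voom. With the GC offset, paired and unpaired, EHD1 was at 0.051 and 0.048, MCOLN1 at 0.018 and 0.027 and SCNN1A at 0.084 and 0.10, and with library size alone SCNN1A was at 0.11 and STOM at 0.020. Leaving out 1 library gave -0.40 to 0.14 for PIEZO1, -1.01 to 0.48 for TRPM7, -0.41 to 0.081 for TMEM63A, -0.47 to 0.20 for TMEM63B, -0.37 to 0.071 for EHD1, -0.46 to 0.085 for MCOLN1, -0.29 to 0.23 for SCNN1A and -0.32 to 0.054 for STOM. In the paired fit without pair 1, PIEZO1 was at 0.044, TRPM7 at -0.78, EHD1 at 0.074 and SCNN1A at 0.12, and without pair 2 TRPM7 was at -0.18, CAV1 at 0.11 and STOM at 0.14. In the order of levels per length, 8 of 10 genes kept their rank with the longest transcript and 4 with the coding length. With 3 libraries a group, the intervals of EHD2 and CAV2 without pairing include 0.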

Other observations

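PACSIN1, a membrane-curving protein of the caveola neck list, was singled out after its values were seen. It had 0, 1 and 1 counts at 8000 Pa and 11, 6 and 5 counts at 500 Pa, and was left out of the main test by the filter on low counts. Without that filter its log2 fold change was -3.14 (SE 1.29, edgeR adjusted p = 0.949). The 8000 Pa counts are at or under the floor of 3 counts. CAVIN3 (PRKCDBP in the tables), another cavin, had 13.3, 62.3 and 31.3 CPM at 8000 Pa and 27.2, 63.8 and 34.9 CPM at 500 Pa. It was lower at 8000 Pa in 3 of 3 pairs, as 15.2% of all tested genes were. The groups overlapped (paired log2 fold change -0.40, SE 0.25, edgeR adjusted p = 0.615).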
